A study of Oryctolagus cuniculus with 4 samples.

Results

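COL1A1 encodes the alpha 1 chain of type I collagen. In a section of rabbit supraspinatus taken 2 weeks after tenotomy, 120 of the 854 spots under tissue held 5 or more COL1A1 UMIs, and these COL1A1-high spots are described here. They were chosen by that count alone, out of 6970 spots in 4 sections. They were set against the 261 spots of the same section with 0 COL1A1 UMIs and 500 or more UMIs of all genes, called COL1A1-zero spots. A further 28 spots with 0 COL1A1 UMIs held fewer than 500 UMIs, and 445 spots held 1 to 4 COL1A1 UMIs. A UMI (unique molecular identifier) marks 1 captured mRNA molecule, and a Visium spot is a circle of 55 µm that can cover several cells or parts of muscle fibers, so each value is a property of a small region.

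Skeletal muscle fibers lie in a collagen-rich connective tissue that fibroblasts and fibro-adipogenic progenitors build, and that widens after the tendon is cut. The fibrillar collagens give this tissue its strength, small leucine-rich proteoglycans such as decorin and lumican space the fibrils, and proteases such as cathepsin K and MMP2 turn them over. Injured fibers are cleared by macrophages and rebuilt by satellite cells, and newly formed fibers pass through a stage with embryonic and neonatal isoforms of myosin and actin before the adult fast or slow isoforms are in place.

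Adult female New Zealand White rabbits, aged 6 months, had the supraspinatus tendon cut as a model of a rotator cuff tear. The sampled piece was muscle belly from its distal, posterior end, chosen so as to leave out tendon and fascia. The muscle had been frozen in cooled isopentane and stored at -80 °C for 6 years. The other sections were stored muscle 16 weeks after tenotomy, stored healthy muscle and fresh healthy muscle. The stored healthy and 16-week sections carry 1 animal number with opposite side letters. With 1 section per condition, no test was possible. Intervals below are exact 95% intervals that cover the counting of UMIs or spots only, not the differences between spots, sections or animals.

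COL1A1 counts in the 120 spots ran from 5 to 138 with a median of 7, and together made up 1282 of the section's 2146 COL1A1 UMIs, or 59.7%. Just inside the threshold lay 35 spots with exactly 5 UMIs, and just outside it 45 spots with 4, with median levels of 10.3 and 8.03 COL1A1 UMIs per 10000. The selection favored deep spots. COL1A1-high spots held a median of 5402 UMIs (lowest 1318, highest 25790), against 4227 (501 to 10554) in COL1A1-zero spots. Each high spot was therefore also paired with the zero spot of nearest total, which gave 120 zero spots of like depth with a median of 5329 UMIs. In 80 pairs the totals lay within 10% of each other, but 14 high spots were deeper than any zero spot. After thinning each spot to 2000 UMIs, high spots still showed more genes, with a median of 544 against 483 in the spots of like depth. Mitochondrial genes took 30.4% of the UMIs of high spots, 36.9% of zero spots and 37.3% of zero spots of like depth. Other settings that vary the depth of the spots or leave mitochondrial UMIs out of the totals are given below. Beyond the values under such settings, the part of depth and mitochondrial share in the ratios was not tested.

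**Figure D1:**
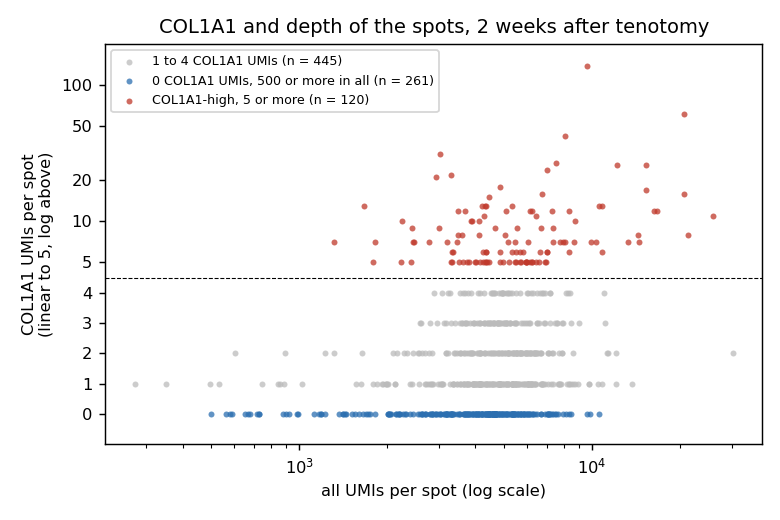
COL1A1 UMIs per spot (vertical axis, linear to 5 and logarithmic above) against all UMIs per spot (logarithmic horizontal axis) in the section 2 weeks after tenotomy; each point is 1 spot and the broken line marks the threshold of 5. The 120 COL1A1-high spots spread over the depths of the rest, and 14 of them lie to the right of the deepest COL1A1-zero spot at 10554 UMIs.

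Summed UMIs of 1907 genes with at least 100 UMIs in the section were compared, leaving out COL1A1. That minimum counted all spots, high spots included, so a sparse gene could pass it mainly through its UMIs in high spots. In COL1A1-high spots 247 genes were at least 2-fold higher per UMI, which is 13% of those tested, and 16 were at least 2-fold lower, which is 0.839%. Against zero spots of like depth the counts were 253 (13.3%) and 25 (1.31%). At 1.5-fold they were 463 (24.3%) and 110 (5.77%). Of the genes past 2-fold in either direction, 93.9% were higher. This share was 82.0% once ratios were centered on the median gene and 79.8% with a threshold of 10 COL1A1 UMIs. The median gene lay at a log2 ratio of 0.18, and at 0.041 when mitochondrial UMIs were left out of the totals. Because a spot mixes cells, fewer cells of a type and less RNA per cell cannot be told apart in any of these ratios. The gene lists were read against the 13% and 0.839% above and against this median, and no test was made on them.

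Most genes of the collagen matrix that passed the minimum were higher in COL1A1-high spots. Of 7 measured fibrillar and associated collagens 4 passed the minimum, and all 4 were at least 2-fold higher, with a median log2 ratio of 2.34. COL3A1, the type III collagen gene, stood at 117 UMIs per 10000 in the median high spot, with a lowest value of 33.2 and a highest of 813. In zero spots of like depth its level ran from 0 through a median of 25.6 to 84.6. Every high spot lay above that median and 79 of the 120 lay above the highest spot of like depth. Among all 261 zero spots the highest value was 313, and 17 high spots lay above it, so the groups overlapped over much of their range. Summed over spots, COL3A1 was 4.87-fold higher (interval 4.68 to 5.06) and 4.97-fold higher against spots of like depth. COL1A2, the partner chain of COL1A1 in type I collagen, ran from 12.4 through 71.8 to 667 UMIs per 10000 in high spots and from 0 through 12.6 to 121 in those of like depth. Its fold was 6.02 (5.71 to 6.35), and 119 of 120 high spots lay above the median of the spots of like depth. Among all 261 zero spots COL1A2 reached 152, and 27 high spots lay above that. COL14A1, a fibril-associated collagen, was 5.37-fold higher (3.0 to 10.2) and COL5A2, a chain of the type V collagen that starts fibrils, 3.39-fold (1.92 to 6.24), both from under 60 UMIs in high spots.

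The small leucine-rich proteoglycans, which bind collagen fibrils and set their spacing, followed. Of 10 measured genes 4 passed, and all 4 were at least 2-fold higher, with a median log2 ratio of 2.12. Keratocan (KERA) had the largest fold of these 4, 9.34 (5.94 to 15.4), and was found in 57 of the 120 high spots against 11 of the 120 of like depth. Lumican (LUM) ran from 0 through 14.5 to 114 UMIs per 10000 in high spots and from 0 through 2.40 to 24.1 in those of like depth. Its fold was 5.75 (5.11 to 6.49), with 114 of 120 high spots above the median of like depth. Among all 261 zero spots the highest LUM value was 50.5, and 10 high spots lay above it. Osteoglycin (OGN) was 3.31-fold higher (2.74 to 4.0). Decorin (DCN), which also binds TGF-beta, was 3.06-fold higher (2.83 to 3.32), and it was present in every high spot and in 108 of 120 spots of like depth.

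Of 19 measured genes for matricellular and elastic fiber proteins 7 passed. At least 2-fold higher were 5 of these 7, and the median log2 ratio was 1.52. Fibronectin (FN1) was at 15.0 UMIs per 10000 in the median high spot and 3.05 in the median spot of like depth, a summed fold of 4.82 (4.34 to 5.36). IGFBP6, which binds insulin-like growth factors, was 4.04-fold higher (3.31 to 4.96). MGP, the inhibitor of calcification and the most abundant gene of this list, was 2.86-fold higher (2.73 to 3.0). IGFBP5 of the same binding protein family did not share this, with a fold of 0.929 (0.720 to 1.19), and its sign differed between ways of weighting the spots.

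Genes that make and remodel the matrix were higher too. In the list for collagen synthesis and crosslinking 6 of 13 measured genes passed, and all 6 were at least 2-fold higher, with a median log2 ratio of 1.55. The procollagen C-proteinase enhancer PCOLCE was 3.32-fold higher (2.72 to 4.07), and its relative PCOLCE2 2.38-fold (1.62 to 3.51). CRTAP and the cyclophilin PPIB, which work together in the prolyl 3-hydroxylation of collagen, were 3.96-fold (2.66 to 6.04) and 2.59-fold (2.00 to 3.38) higher. Among 14 measured matrix proteases and inhibitors 7 passed and 4 were at least 2-fold higher, with a median log2 ratio of 1.60. Cathepsin K (CTSK), a collagen-degrading protease, was found in 100 high spots against 51 of like depth and was 4.90-fold higher (4.03 to 6.00). The gelatinase MMP2 was 3.05-fold higher (2.37 to 3.94), and fibroblast activation protein (FAP) 3.97-fold (2.79 to 5.76). SERPINF1, a secreted anti-angiogenic serpin, was 1.83-fold higher (1.66 to 2.03). Of the 5 genes for protein folding in the endoplasmic reticulum that passed, 2 were at least 2-fold higher: the disulfide isomerases PDIA3 at 2.76-fold (2.19 to 3.50) and PDIA4 at 2.58-fold (1.95 to 3.44). The chaperone HSP90B1 was at 1.97-fold (1.66 to 2.33) and MANF at 1.30-fold (0.773 to 2.20), and the list median was 0.97 on the log2 scale.

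Basement membrane genes, which form the sheet around fibers and vessels, were higher by less. In that list 6 of 11 measured genes passed the minimum and 5 were at least 2-fold higher, with a median log2 ratio of 1.15. The collagen IV chain COL4A2 led with 3.53-fold (3.11 to 4.02). The laminin chains LAMB1, LAMA4 and LAMA2 stood at 2.41-fold, 2.33-fold and 2.13-fold, with intervals that overlapped.

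**Figure D2:**
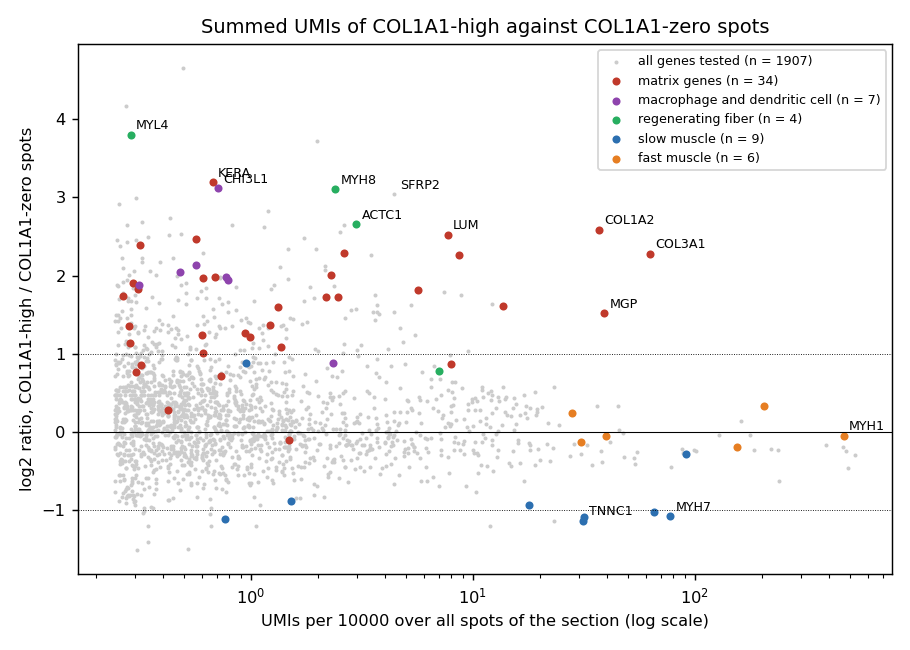
Log2 ratio of summed UMIs per total, COL1A1-high over COL1A1-zero spots (vertical axis), against the level in UMIs per 10000 over the whole section (logarithmic horizontal axis) for 1907 genes; dotted lines mark 2-fold. Matrix, macrophage and regenerating fiber genes lie mostly above the upper line, fast muscle genes lie near 0, and 7 of 9 slow muscle genes, such as MYH7 (-1.08) and TNNC1 (-1.14), lie near or below the lower line.

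Markers of fibroblasts and fibro-adipogenic progenitors, the cells that lay down this matrix, were also higher. Of 14 measured genes 7 passed, and all 7 were at least 2-fold higher, with a median log2 ratio of 1.56. SFRP2, a secreted modulator of Wnt signalling, was found in 103 high spots and in 49 of like depth, with a fold of 8.27 (7.02 to 9.80). A single spot held 188 of its 1001 UMIs in high spots, and without that spot the log2 ratio was 2.76 instead of 3.04. Dermatopontin (DPT) was 2.99-fold higher (2.53 to 3.53), vimentin (VIM) 2.96-fold (2.48 to 3.54) and the complement protease C1R 2.50-fold (1.98 to 3.17). Among the 12 largest ratios of genes with a symbol were also CDH11, the cadherin of mesenchymal cells, at 8.22-fold (4.42 to 16.6), and CPXM1, a secreted carboxypeptidase-like protein, at 7.87-fold (3.84 to 18.2). SVEP1, a large extracellular adhesion protein, was at 6.85-fold (3.90 to 12.9) and GSTA5, a glutathione transferase, at 7.20-fold (5.07 to 10.5). Each of these 4 was seen in under 60 of the 120 high spots. Since the minimum counted high spots too, the place of such sparse genes may rest partly on those spots. Of the tendon genes only CILP passed the minimum, at 2.10-fold (1.54 to 2.89). TNMD, which marks tendon cells, had 1 UMI in the section and MKX none. In the TGF-beta and BMP signalling list 19 of 20 measured genes were under the minimum, and TGFB3 stood at 1.51-fold (0.988 to 2.32).

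Within the 120 spots the most abundant matrix genes followed COL1A1 and others did so weakly. Spearman's rho with the COL1A1 share across these spots had a median of 0.41 over the 24 matrix genes named here, from 0.057 for CRTAP to 0.78 for COL1A2, with 8 genes at 0.5 or more and 5 under 0.2. It was 0.78 for COL1A2, 0.77 for COL3A1, 0.69 for FN1, 0.69 for DCN and 0.68 for LUM, and -0.55 for the tropomyosin Tpm2. The 8 matrix genes at 0.5 or more were each found in 101 or more of the 120 spots, and the 5 under 0.2 in 27 to 76. A gene at 0 in many spots has many tied values, so a low rho need not mean a weaker relation. The part of sparse counts in the low values was not tested. The spots share 1 library and shares of 1 total, so these values only describe the section. COL1A1 also selected the spots, and with at least 5 COL1A1 UMIs in each, a low COL1A1 share occurs only in deep spots. The part of depth and of this selection in the rho values was not tested. The relation to COL1A1 did not start at the threshold. From 0 through 1, 2, 3 to 4, 5 to 9, and 10 or more COL1A1 UMIs, COL3A1 stood at 30.0, 36.4, 51.9, 65.3, 106 and 204 UMIs per 10000. MYH7, the slow myosin heavy chain, stood at 93.7, 88.8, 80.8, 70.2, 61.9 and 19.0 over the same steps. MYH8, the neonatal myosin heavy chain, took no such even course, with 0.661, 1.11, 3.96, 1.57, 2.29 and 10.7. Its log2 ratio was 4.01 with a threshold of 10 COL1A1 UMIs. With the 120 spots chosen by COL1A1 per 10000 UMIs it was 2.64, against 3.10 in the main comparison. Across the 120 COL1A1-high spots, rho with the COL1A1 share was -0.20 for MYH8. It was -0.18 for MYL4 and -0.33 for ACTC1, also genes of newly formed fibers, with the same limit of depth.

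**Figure D3:**
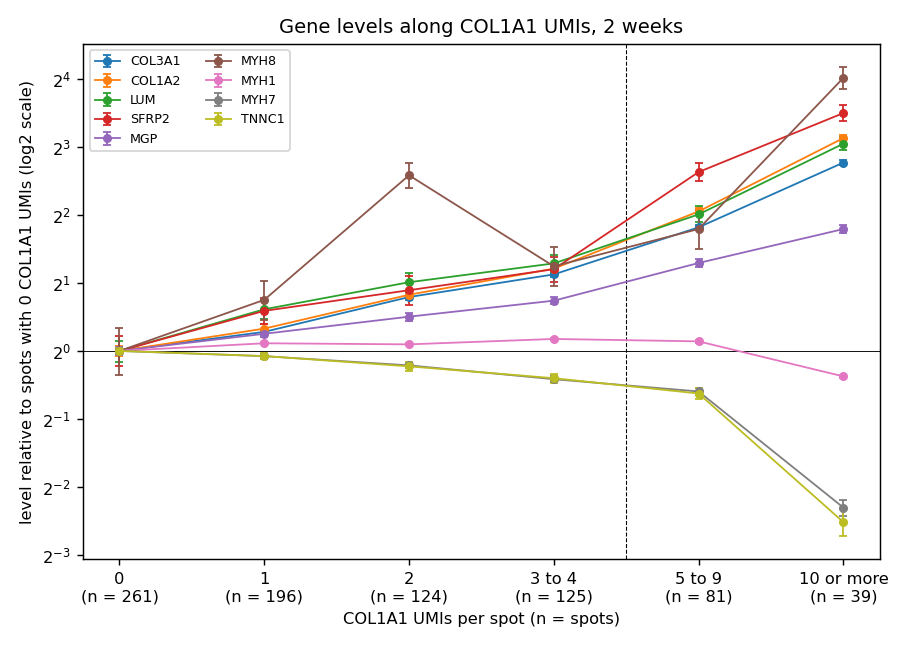
Level of 9 genes in spots grouped by COL1A1 UMIs (horizontal axis, with the number of spots), relative to the 261 COL1A1-zero spots (vertical axis, log2 scale); bars are exact 95% counting intervals and the broken line marks the threshold of 5. COL3A1, COL1A2, LUM, SFRP2 and MGP climb step by step, MYH7 and TNNC1 are lowest at 10 or more, and MYH8 peaks at 2 and again at 10 or more.

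Muscle genes differed by fiber type. None of the 6 fast muscle genes that passed was 2-fold different in either direction, and their median log2 ratio was -0.048, with a sign that turned positive against spots of like depth. MYH1, the type 2X myosin heavy chain, stood at 452 UMIs per 10000 in the median high spot and 432 in the median spot of like depth, with ranges of 44.7 to 887 and 33.5 to 839 that covered each other. The summed fold was 0.968 for MYH1 (0.954 to 0.981), 0.967 for the 2B myosin MYH4 (0.921 to 1.01) and 0.876 for the calcium pump ATP2A1 (0.854 to 0.898). The fast light chain MYL1 stood at 1.26 (1.23 to 1.28), and at a log2 ratio of -0.084 once spots with MYH8 or MYL4 were left out. Of 12 sarcomere and metabolic genes that both fiber types share, none passed 2-fold. Nebulin (NEB) stood at 0.797, the glycolytic enzymes ALDOA at 0.851 and ENO3 at 0.863, and the tropomyosin TPM1 at 1.10, whose sign differed between scalings.

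In the slow muscle list 5 of 9 genes were at least 2-fold lower, against 0.839% of all genes, and the median log2 ratio was -1.02. MYH7 ran from 3.94 through 28.9 to 238 UMIs per 10000 in high spots and from 1.67 through 70.0 to 301 in those of like depth. In 97 of 120 high spots it lay below the median of like depth, although the ranges overlapped almost wholly. The summed fold was 0.474 (0.456 to 0.493). The ventricular and slow light chains MYL2 and MYL3 stood at 0.493 and 0.469, the slow troponin C TNNC1 at 0.455 and the Z-disc protein CSRP3 at 0.458 (0.292 to 0.698). STRIT1, a micropeptide that activates the calcium pump of slow and cardiac muscle, stood at 0.455 (0.423 to 0.489), while slow troponin I (TNNI1) was at 0.823 (0.797 to 0.850). Other genes among the 12 smallest ratios were the mitochondrial enzymes ME3 at 0.339 (0.151 to 0.688) and SUCLG2 at 0.423 (0.215 to 0.782), adenosine kinase (ADK) at 0.367 (0.188 to 0.671) and PDE4DIP at 0.430 (0.304 to 0.598). C1orf43 stood at 0.435 (0.393 to 0.481) and DYNC2LI1, a dynein 2 light intermediate chain, at 0.478 (0.307 to 0.727). The 2-fold calls depended on the setting. MYH7 stood at a log2 ratio of -0.86 with spots thinned to 2000 UMIs, -0.91 with spots weighted equally, -0.83 without the 14 deepest spots and -0.85 pooled by position, all short of 2-fold, and the list median was -0.91, -0.91, -0.87 and -0.86 in that order. Of the 16 genes 2-fold lower, 8, 8, 8 and 5 were so again under these settings. With a threshold of 3 instead of 5 COL1A1 UMIs, 1 gene instead of 16 was 2-fold lower and the slow list median was -0.64.

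**Figure D4:**
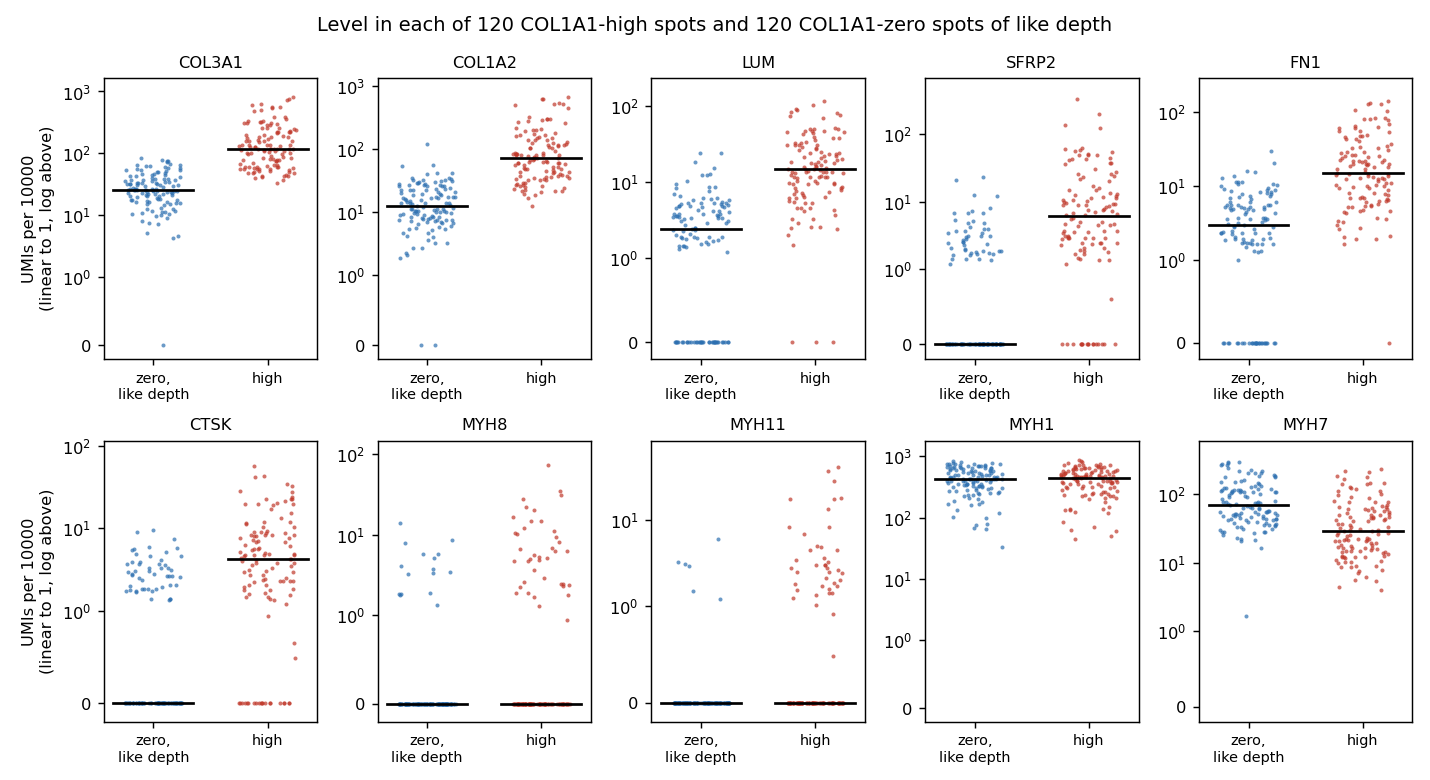
UMIs per 10000 of 10 genes in each of the 120 COL1A1-high spots (red) and the 120 COL1A1-zero spots of like depth (blue); the vertical axes are linear to 1 and logarithmic above, and the black line is the median. COL3A1 lies above the median of like depth in every high spot, MYH8 and MYH11 are at 0 in most spots of both groups, MYH1 covers the same range in both, and the median of MYH7 is 70.0 in spots of like depth and 28.9 in high spots.

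Genes of newly formed fibers were higher in the sum of COL1A1-high spots. Of the regenerating fiber list 3 of 4 genes that passed were at least 2-fold higher, with a median log2 ratio of 2.88. The study itself picked a region of this section by MYH8 and MYL4, so the list is not independent of these samples. MYL4, the embryonic light chain, stood at 14.9-fold (6.88 to 38.3) but rested on 75 UMIs in high spots, of which 28 lay in 1 spot. These 75 UMIs are most of the 100 that a gene needed to pass the minimum, so its place in the list rests on the high spots. The count of 3 of 4 and the median of 2.88 include MYL4 and share this limit. MYH8 was 8.64-fold higher (6.72 to 11.3) and was found in 40 high spots against 16 of like depth. ACTC1, the actin of heart and developing muscle, was 6.34-fold higher (5.26 to 7.68) and was found in 62 high spots against 44 of like depth. ANKRD1, a stress-responsive ankyrin repeat protein, stood at 1.72-fold (1.55 to 1.92). These ratios leaned on the deepest spots: without the 14 high spots deeper than any zero spot, the log2 ratio was 2.07 instead of 3.10 for MYH8 and 1.65 instead of 2.66 for ACTC1. With spots holding any MYH8 or MYL4 left out of both groups, ACTC1 stood at 0.64, short of 2-fold. Genes of satellite cells and myoblasts could not be compared, since none of 6 passed the minimum and their sum was 8 UMIs in high and 12 in zero spots.

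Spots with 3 or more MYH8 UMIs, a cut chosen after the values were seen, made up 23 of the 120 high spots, or 19.2% (12.6 to 27.4), and 7 of the 120 of like depth, or 5.83% (2.38 to 11.6). A further 26 of the section's 59 such spots held 1 to 4 COL1A1 UMIs, which is 5.84% (3.85 to 8.44) of those 445 spots. The cut is on raw counts, and 14 of the 120 high spots were deeper than any zero spot. The spots of like depth do not match those 14, so these shares are not free of depth. The part of depth in them was not tested. Of the 23 high spots, 22 also held 3 or more ACTC1 UMIs. They were deep, with a median of 10539 UMIs (4842 to 25790), against 4564 in the 80 high spots without MYH8. Their COL3A1 stood at 110 UMIs per 10000 (106 to 114), below the 176 (172 to 180) of the high spots without MYH8, and COL1A2 at 61.3 against 123. MYH7 differed more: it stood at 16.2 (14.7 to 17.8) in high spots with 3 or more MYH8 UMIs and at 63.8 (61.3 to 66.4) in those without. Among zero spots MYH7 stood at 37.3 (32.3 to 42.8) in the 10 spots with 3 or more MYH8 UMIs and at 99.3 (97.2 to 101) in the 230 without. MYL2, MYL3, TNNC1 and the slow calcium pump ATP2A2 were likewise lowest, of these 4 sets of spots, in the high spots with 3 or more MYH8 UMIs. When spots of both groups with any MYH8 or MYL4 were left out, the slow list median was -0.72 instead of -1.02, and MYH7 at a log2 ratio of -0.64 no longer passed 2-fold. The collagens kept their direction without these spots, with a list median of 2.76.

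Most genes of the macrophage and dendritic cell list that passed the minimum were higher in COL1A1-high spots. Of 19 measured macrophage and dendritic cell genes 7 passed the minimum and 6 of them were at least 2-fold higher, with a median log2 ratio of 1.98. Their summed level ran from 0 through 8.40 to 154 UMIs per 10000 in high spots, and from 0 through 3.50 to 26.6 in those of like depth. Among all zero spots it reached 113. CHI3L1, a secreted chitinase-like protein, was 8.84-fold higher (5.61 to 14.6). Across high spots the rho of its share was 0.13 with CSF1R of the same list, 0.39 with GSTA5 and 0.30 with COL3A1. Which cells held CHI3L1 was not tested. CD74, the invariant chain of antigen presentation, stood at 3.98-fold (2.81 to 5.72) and galectin-3 (LGALS3) at 3.87-fold (2.80 to 5.42). The lysosomal protease CTSB was at 1.85-fold (1.53 to 2.23). Among endothelial genes VWF was 2.18-fold higher (1.83 to 2.60) and CAV1 1.91-fold (1.64 to 2.21), with 8 of 10 measured genes under the minimum and KDR at 0. Their summed level reached 78.2 UMIs per 10000 in high spots, 24.1 in spots of like depth and 71.0 among all zero spots. CCL21, a chemokine of lymphatic vessels and lymphoid tissue, was 6.20-fold higher (4.57 to 8.54), with 51 of its 232 UMIs in 1 spot.

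In the smooth muscle and pericyte list 2 of 5 genes that passed were at least 2-fold higher, and the median log2 ratio of 0.18 matched that of all genes. The smooth muscle myosin MYH11 was at 6.38-fold (4.18 to 10.1), and at 16.4-fold against spots of like depth. The 1 COL1A1-zero spot with 3 or more MYH11 UMIs was not among those of like depth. The part of this pairing in the second fold was not tested. The smooth muscle actin ACTA2 was at 5.89-fold (4.72 to 7.40). ABCC9 and LMOD1 stood at 1.01 and 1.13, with intervals that held 1. Tpm2, which striated muscle also expresses, was at 0.973 and made up most of the list's UMIs. Of the high spots 12, or 10.0% (5.27 to 16.8), held 3 or more MYH11 UMIs, against 0 of 120 of like depth, which allows a share of up to 2.50% (3 spots of 120) or, by the exact interval, 3.03%. Only 1 of these 12 also held 3 or more MYH8 UMIs. In the whole section 24 spots held 3 or more MYH11 UMIs, and 11 of them had 1 to 4 COL1A1 UMIs. Leaving out such spots kept 108 high and 260 zero spots, with COL3A1 at a log2 ratio of 2.23 and COL1A2 at 2.51. MYH11 itself fell to 0.96, which follows by construction from the choice of spots by MYH11.

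Of 8 measured adipocyte genes 6 were under the minimum, and ADIPOQ and LEP were listed at 0. The muscle gene TCAP was listed at 0 too and the matrix gene SPARC had 8 UMIs in the section, so a low or zero count here does not show that a gene was not expressed. The lipoprotein lipase gene LPL, which muscle also uses, stood at 1.31-fold (1.16 to 1.48) and SNCG, a synuclein of adipocytes and nerve, at 4.24-fold (2.52 to 7.41). The list's summed level reached 93.0 UMIs per 10000 in high spots, 34.7 in spots of like depth and 56.7 among all zero spots. In the nerve and Schwann cell list S100B was at 2.62-fold (1.59 to 4.39) and the heat shock protein CRYAB, abundant in slow muscle, at 0.766 (0.729 to 0.806). No lymphocyte or blood cell gene passed the minimum, with sums of 15 against 7 and 17 against 13 UMIs in high and zero spots. The part of these cell types in the matrix ratios was not tested, apart from the values without MYH11 spots.

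The share of COL1A1-high spots differed between groups of array positions. The counts and array positions are not joined spot by spot, but an array position keeps its barcode on each capture area, so spots could be grouped by which other sections also had tissue there. High spots were 90 of the 512 spots whose position was covered in all 4 sections, or 17.6% (14.4 to 21.2). They were 11 of 34 spots, or 32.4% (17.4 to 50.5), where only the 16-week and stored healthy sections shared the position, and MYH8 was at 10.9 UMIs per 10000 in these 34. They were 5 of 122, or 4.10% (1.34 to 9.31), where only both healthy sections did, and 5 of 100, or 5.0% (1.64 to 11.3), where only the fresh section did. In smaller groups they were 2 of 24 (only the 16-week section), 2 of 32 (16-week and fresh), 3 of 28 (no other section) and 2 of 2 (only stored healthy). The selection favored deep spots, and the part of depth in these shares was not tested. Pooling the ratio within such groups left MYH8 at a log2 ratio of 2.16 instead of 3.10 and MYH7 at -0.85 instead of -1.08, while COL3A1 was at 2.26.

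The same selection in the other sections gave few spots. Spots with 5 or more COL1A1 UMIs numbered 17 at 16 weeks, 35 in stored healthy muscle and 1 in fresh muscle, so 3 or more UMIs were used there, with 66, 100 and 5 spots. Of the genes tested 35.1%, 26.2% and 30.2% were at least 2-fold higher in these spots, and 6.71%, 2.29% and 6.59% at least 2-fold lower. The median gene there lay at a log2 ratio of 0.63, 0.57 and 0.38, so most genes were shifted upward in these spots. Mitochondrial genes took 14.7%, 38.5% and 47.3% of the UMIs in these spots, against 36.6%, 50.9% and 49.4% in zero spots. At 2 weeks a threshold of 3 gave 9.75% higher, with a median log2 ratio of 0.14. The part of the shift in these shares was not tested. Among 1814 genes that passed in both sections, 191 were higher in both the 2-week and the 16-week section, which is 80.3% of the 238 at 2 weeks and 36.0% of the 531 at 16 weeks. With stored healthy muscle 197 of 1889 genes were shared, which is 82.8% of 238 and 48.3% of 408. With fresh muscle, from 5 spots, 96 were shared, which is 58.9% of 163 and 19.2% of 501. Over the genes compared, 29.3%, 21.6% and 28.4% were 2-fold higher at 16 weeks, in stored healthy and in fresh muscle. COL3A1 stood at 7.05-fold (6.69 to 7.43) at 16 weeks and 4.42-fold (4.24 to 4.60) in stored healthy muscle. COL1A2 stood at 15.4-fold (14.6 to 16.2) and 7.76-fold (7.42 to 8.12), and MYH8 at 14.7-fold (10.5 to 20.5) and 3.81-fold (3.15 to 4.60). Thresholds and depths differ between these sections, and the size of the folds was not compared.

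MYH7 stood at 0.570 (0.542 to 0.600) in COL1A1-positive spots at 16 weeks and at 2.45 (2.40 to 2.49) in stored healthy muscle. At a threshold of 3 its 2-week value was 0.600 (0.582 to 0.618). MYH1, level at 2 weeks with 5 or more COL1A1 UMIs, stood at 0.320 (0.289 to 0.353) at 16 weeks and 0.351 (0.337 to 0.366) in stored healthy muscle. The selections were unlike: 120 spots beside 261 zero spots at 2 weeks, 66 beside 1218 at 16 weeks and 100 beside 1717 in stored healthy muscle. With 10 or more COL1A1 UMIs at 2 weeks, in 39 spots, the log2 median of the fast muscle list was -0.36. The part of the threshold in the MYH1 values was not tested. The difference between sections was not tested, since each condition was 1 section.

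**Figure D5:**
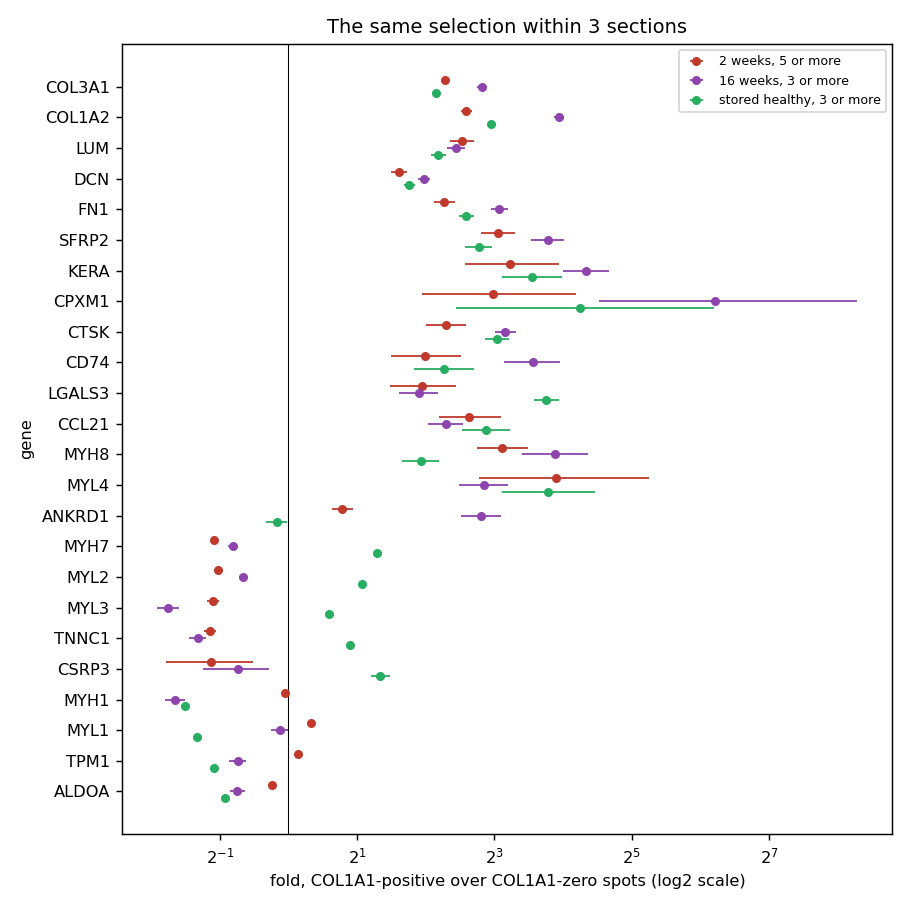
Fold of 24 genes, COL1A1-positive over COL1A1-zero spots of the same section (horizontal axis, log2 scale), at 2 weeks with 5 or more COL1A1 UMIs (red), at 16 weeks (purple) and in stored healthy muscle (green) with 3 or more; lines are exact 95% counting intervals. Matrix genes lie right of 1 in all 3 sections, and slow genes such as MYH7 lie left of 1 at 2 and 16 weeks and right of it in healthy muscle. At these thresholds MYH1 lies near 1 at 2 weeks and left of it at 16 weeks and in healthy muscle.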

How the data were processed

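Per the labels and the study's methods, the authors ran Space Ranger 1.2.0 against OryCun2.0 and deposited its raw UMI counts for spots under tissue, 21139 genes in all. Each table's values are whole-number counts, not normalized. Here, UMIs were summed over 120 COL1A1-high (773710 UMIs), 261 COL1A1-zero (1074358) and 120 zero spots of like depth (613926) and divided by these totals. Log2 ratios carry a pseudocount of 0.5. Ratios have exact conditional, sums exact Poisson and shares Clopper-Pearson 95% intervals. Called genes are those past 2-fold, not tested ones. A gene needed 100 UMIs in the section, counted over all spots. Named genes are the 12 largest and 12 smallest ratios, mitochondrial genes left out, and the 4 genes with most UMIs of each of 22 lists; 9803 genes had no symbol. The spots, lists and cuts were chosen with earlier results of these data known. Functions were tested on simulated data. The 117 high-spot barcodes shared with other sections mark array positions, not shared molecules. No doublet caller was run, since spots are regions. Scipy 1.17.1 gave the intervals, with numpy 2.4.6 and pandas 2.3.3 under Python 3.11.15, and matplotlib 3.10.9 the figures. No sequence is shown, since no table of this build was used.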

Additional observations from a re-analysis of the deposited data

Results flagged for a closer look

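Some muscle genes had folds on opposite sides of 1 in COL1A1-positive spots of 2 sections, with counting intervals that both left out 1; each section is 1 sample, the other sections used 3 or more COL1A1 UMIs, and the difference was not tested. Against the 2-week folds of 0.474 for MYH7, 0.493 for MYL2, 0.469 for MYL3, 0.455 for TNNC1, 0.458 for CSRP3, 0.435 for C1orf43, 0.455 for STRIT1 and 0.766 for CRYAB, stored healthy muscle gave 2.45, 2.11, 1.51, 1.87, 2.53, 1.82, 1.11 and 2.22 in that order. Fresh healthy muscle, with only 5 such spots, gave 1.56, 1.52, 1.80, 1.84, 3.76, 1.59, 2.04 and 1.51 in the same order. The median gene did not lie at a fold of 1 in these sections. Its log2 ratio was 0.18 at 2 weeks, 0.57 in stored healthy, 0.38 in fresh healthy and 0.63 in 16-week muscle. STRIT1 at 1.11 in stored healthy muscle lay below the median gene of that section, and MYL3 at 1.51 lay close to it.

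ANKRD1, at 1.72 at 2 weeks, stood at 0.890 in stored healthy muscle. MYL1, at 1.26 at 2 weeks, stood at 0.398 in stored healthy, 0.631 in fresh healthy and 0.917 in 16-week muscle. TPM1, at 1.10 at 2 weeks, stood at 0.475, 0.600 and 0.599 in the same order. The 2-week signs of MYL1 and TPM1 turned under other settings, with MYL1 at -0.084 and TPM1 at -0.12 on the log2 scale without MYH8 or MYL4 spots.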

How the results depend on the processing

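In all 19 alternatives were run, 18 for the counts of genes, 15 for list medians and 16 for named genes, 3 of the 19 chosen after seeing the data (without the spot with most COL1A1, without the 14 spots deeper than any zero spot, without spots with MYH8 or MYL4). No called value changed sign. Of 1262 values of 79 named genes, 911 stayed within their counting interval and 351 moved out of it, and 9 genes under 2-fold changed sign under some alternative. Of 209 values of 14 list medians 169 stayed within the median interval of their members. The cause of the moves was not tested, unless the construction gives it.

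The 247 genes higher became 445 with a gene minimum of 50 UMIs, 98 with 300 and 463 at 1.5-fold. With totals without mitochondrial genes there were 201, and 196 once centered on the median gene. Thresholds of 3 and 10 COL1A1 UMIs gave 186 and 316, and the choice by COL1A1 per 10000 UMIs gave 328. Thinned spots gave 355, equal weights 312, zero spots of like depth 253 and the set without the 14 deepest spots 305. Without spots with MYH8 or MYL4 there were 365. The 16 genes lower became 25 against spots of like depth, 48 with spots thinned to 2000 UMIs, 32 with totals without mitochondrial genes, 43 centered on the median gene, 1 and 80 with thresholds of 3 and 10 COL1A1 UMIs, 30 when the 120 spots were chosen by COL1A1 per 10000 UMIs, 40 and 8 with gene minimums of 50 and 300, and 110 at 1.5-fold.

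List medians (log2) under the thresholds of 3 and 10 and the choice per 10000 UMIs were 1.90, 2.71 and 2.67 for fibrillar collagens, 1.72, 2.56 and 2.50 for proteoglycans, 2.32, 3.66 and 2.40 for regenerating fiber, 0.051, -0.36 and 0.049 for fast muscle and -0.64, -1.83 and -1.28 for slow muscle. Shared sarcomere genes were at -0.12 and -0.49 and proteases at 2.08 (threshold 10). With totals without mitochondrial genes and centered, fast muscle was at -0.19 and -0.23, slow at -1.16 and -1.2 and shared sarcomere at -0.38 and -0.42. Against like depth, fast was at 0.015 and slow at -1.18. Thinned, regenerating fiber was at 2.35 and fast at 0.012. With spots weighted equally, proteoglycans were at 2.38, regenerating fiber at 2.17 and fast at -0.0023. Pooled within position groups, regenerating fiber was at 2.05 and fast at -0.12. Without the deepest spots they were at 1.86 and 0.017. Without spots with MYH8 or MYL4, fibrillar collagens were at 2.76, proteoglycans at 2.42, slow at -0.72, shared sarcomere at -0.36 and endoplasmic reticulum folding at 1.26, and the regenerating list, MYH8 and MYL4 gave no value there by construction.

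No paired analysis was possible because each condition was 1 section. Counting intervals do not cover spread between spots or animals, which limits every value here. Genes under 100 UMIs, among them most signalling, lymphocyte and satellite cell genes, could not be compared at this depth. TCAP, an abundant muscle gene, was listed at 0, and whether low counts reflect depth alone was not tested.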

Other observations

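The 11 COL1A1-high spots with 3 or more CHI3L1 UMIs, a group chosen after the values were seen, had 280 COL3A1 and 42.1 SFRP2 UMIs per 10000, against 119 and 8.91 in the 85 high spots without CHI3L1. GSTA5 stood at 14.1 against 1.09, LPL at 26.1 against 4.27, CAV1 at 17.9 against 4.17 and CTSK at 15.7 against 4.45. MYH1 was at 266 against 457. None of the 11 held 3 or more MYH8 UMIs, and 0 of 261 COL1A1-zero spots held 3 or more CHI3L1 UMIs, which allows a share of up to 1.15% (3 spots of 261) or, by the exact interval, 1.40%. Of the 20 spots in the section with 3 or more CHI3L1 UMIs, 9 had 1 to 4 COL1A1 UMIs. Without the spot with most COL1A1, which is 1 of the 11, COL3A1 stood at 229, SFRP2 at 18.0, GSTA5 at 16.3, LPL at 29.9, CAV1 at 15.4, CTSK at 13.1 and MYH1 at 300.5 UMIs per 10000. The median depths were 6736 and 5522 UMIs.

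The spot with most COL1A1 (138 of 9616 UMIs) held 607 COL1A2, 581 COL3A1, 188 SFRP2, 79 FN1 and 12 CHI3L1 UMIs, with 43 MYH1, 15 MYH7 and 0 MYH8 UMIs. The next spot, with 61 COL1A1 of 20682 UMIs, held 347 COL1A2 and 514 COL3A1 beside 977 MYH1, 52 ACTC1 and 11 MYH8 UMIs.

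Of lists drawn up by symbol after the data were seen, 12 cytosolic ribosomal protein genes had a median log2 ratio of 0.41 and 25 nuclear genes of the respiratory chain one of -0.14, with none past 2-fold in either list. The median over all 1907 genes was 0.18.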
